A study of Homo sapiens with 48 samples.

Results

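The 8 libraries described here are those of the Kelly cell line that received no actinomycin D, out of 48 in the series. They were chosen by label alone: 2 libraries each of cells kept in DMSO for 3 days, in DMSO for 6 days, in 8 µM STM2457 for 3 days and in 8 µM STM2457 for 6 days. Kelly is a human neuroblastoma line, labelled as MYCN-amplified and wild type in all groups. DMSO is the solvent and serves as the control. The quantity of interest is the duration difference, which is the log2 STM2457-to-DMSO ratio at 6 days minus the same ratio at 3 days. By arithmetic it equals the 6-day to 3-day change in STM2457 minus that in DMSO, so each gene can be followed back to the arm that moved.

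METTL3 is the catalytic subunit of the complex that writes N6-methyladenosine (m6A) on messenger RNA, a mark read by proteins that affect splicing, translation and decay. STM2457 is a small molecule that occupies the cofactor pocket of METTL3 and blocks its activity without removing the protein. Genes of DNA replication are switched on before S phase, largely through E2F factors, and many mitotic genes are switched on later through a promoter element called the cell cycle genes homology region. Both groups of genes are commonly read as signs of cycling cells.

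The libraries held 13807701 to 19291613 fragments in genes, and 14351 to 15214 genes had at least 1 fragment. Of the 10 neuroblastoma markers, none was at 0, and their summed level was 9148 to 10020 CPM (fragments scaled to library size) over the 4 groups. Markers of Schwann, immune and epithelial cells were near 0, at sums of 1.11 to 5.92, 1.103 to 9.69 and 1.23 to 9.29 CPM, each highest in a DMSO library of 6 days, and the epithelial cadherin CDH1 had no fragment in any of the 8. The 8 mesenchymal markers summed to 42.3 to 46.3 CPM in DMSO at 3 days, 53.1 to 53.8 in STM2457 at 3 days, 122 in both DMSO libraries at 6 days and 99.8 to 110 in STM2457 at 6 days. The higher levels at 6 days stood in both arms, COL1A1 and PDGFRB held most of the fragments, and their part in any result was not tested. Whether both replicates of a group came from separate cultures is not in the labels, so p-values measure the spread between these libraries, which may be technical. Nor do the labels tell whether 3-day and 6-day cells came from the same plating, so that duration, density and harvest cannot be told apart.

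The effect of STM2457 differed between the durations for 132 of the 16759 genes tested, at an adjusted p under 0.05 (edgeR's quasi-likelihood test, Benjamini-Hochberg over all genes). The STM2457 effect was higher at 6 days for 114 genes, which is 0.68% of those tested, and lower for 18, which is 0.107%. At an unadjusted p under 0.05 there were 1111 genes. The values nearest the threshold were an adjusted p of 0.04716 for SLC25A23, inside it, and 0.05588 for MYCN, outside it. Levels were scaled by TMM, which centres most genes on no change, and every rise and fall is relative to that centre unless another scaling is named.

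In most of these genes it was the DMSO level that moved. DMSO alone changed between 3 and 6 days for 99 of the 132 genes (75%), and both arms changed in the same direction for 24. STM2457 alone changed for 5 genes, both arms changed in opposite directions for 1, and neither arm's change passed the test for 3. Among the 114 genes with a higher effect at 6 days, the DMSO level fell for 109, and the median change was -0.67 log2 in DMSO against -0.10 in STM2457. Among the 18 with a lower effect, the DMSO level rose for 15, with medians of 0.42 in DMSO and 0.06 in STM2457. The change was larger in DMSO than in STM2457 for 126 of the 132 genes.

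Over all genes, DMSO libraries also changed more between the durations than STM2457 libraries did. In DMSO 466 genes rose (2.78%) and 962 fell (5.74%), while in STM2457 201 rose (1.2%) and 200 fell (1.19%). STM2457 against DMSO gave 97 higher (0.579%) and 185 lower genes (1.1%) at 3 days, and 453 higher (2.7%) and 212 lower genes (1.26%) at 6 days. For 83 of the 114 genes the STM2457 effect passed the test at 6 days and not at 3, while 8 passed at 3 days only, 10 at both with the same sign, 6 at both with opposite signs and 7 at neither. The 3-day and 6-day DMSO libraries did not overlap for 128 of the 132 genes, against 47.6% of all genes tested. In STM2457 they did not overlap for 90, against 41.2% of all genes. The 132 genes were called on these same libraries, so these counts of non-overlap describe them and do not test them.

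**Figure D1:**
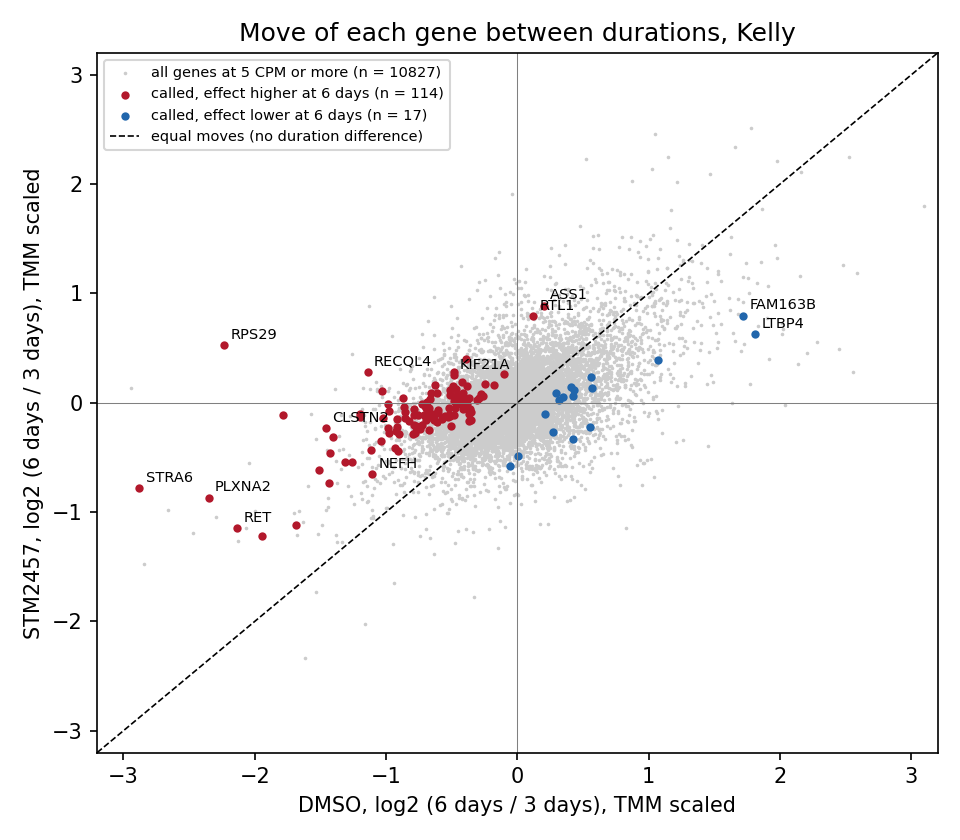
Change of each Kelly gene from 3 to 6 days in DMSO (horizontal, log2) and in STM2457 (vertical, log2), both TMM scaled. Grey points are genes with a mean of 5 CPM or more, red points are genes with a higher and blue points genes with a lower STM2457 effect at 6 days, and the dashed line marks equal change. DMSO lies below 0 for 112 of the 114 red points, whose median is -0.67 in DMSO and -0.10 in STM2457, and KCP is not drawn.

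The arm that moved depends on the scaling. Each library also holds ERCC spike-in RNA, and its share of fragments was 0.381% and 0.382% in DMSO at 3 days, 0.29% and 0.298% in STM2457 at 3 days, 0.314% and 0.306% in DMSO at 6 days, and 0.361% and 0.364% in STM2457 at 6 days. Scaled to these spike-ins, the median gene changed by 0.35 log2 in DMSO, by -0.24 in STM2457, and by -0.62 in the duration difference. The 114 genes then had a median change of -0.29 in DMSO and -0.37 in STM2457, and a median duration difference of -0.06. In DMSO 97 of them then lay below 0 and 17 above 0, with GAPDH, FASN, CENPF and HNRNPA2B1 among the 17. In STM2457 108 then lay below 0 and 6 above 0. Under that scaling 5 of the 114 still passed as higher and 20 passed as lower, while all 18 genes with a lower effect still passed in the same direction. Over all 16759 genes tested, 7 passed as higher and 4002 as lower under it. RPS29, which rests on 1 library, is among the 5. Under ERCC scaling the change was larger in DMSO for 62 of the 132 genes, against 126 with TMM. Scaling shifts all genes of a library together. With the median of all genes subtracted under ERCC scaling, 126 of the 132 changed more in DMSO, and all 132 kept their TMM direction. This subtraction returns to a centre like that of TMM, so it cannot tell which scaling is right. The labels do not say at what step the spike-ins were added. In whole-culture RNA, fewer cells of a type and less RNA per cell cannot be told apart.

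**Figure D2:**
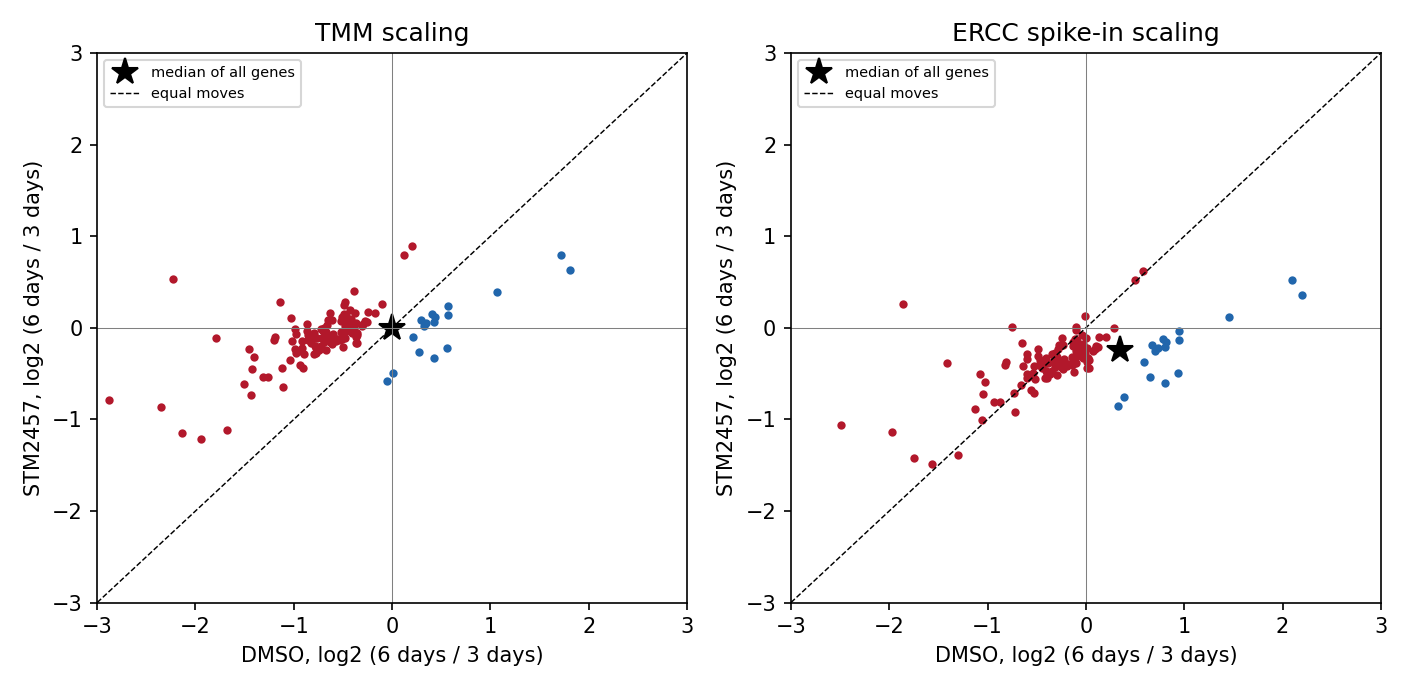
Change from 3 to 6 days in DMSO (horizontal, log2) and STM2457 (vertical, log2) for the called genes under TMM scaling (left) and ERCC scaling (right); red, higher, and blue, lower STM2457 effect at 6 days under TMM, KCP not drawn. The star, the median of all genes, sits at 0 and 0 on the left and at 0.35 and -0.24 on the right, and 68 of the 114 red points lie below the line of equal change on the right against 0 on the left.

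STRA6 (chr15:74179466-74212267), the cell-surface receptor that takes up vitamin A, stood at 84.5 and 84.9 CPM in DMSO at 3 days and at 9.66 and 13.6 CPM in DMSO at 6 days. In STM2457 its levels were 94.9 and 97.4 CPM at 3 days and 55.0 and 56.7 CPM at 6 days. The gene fell in both arms, the arms were close at 3 days, and DMSO at 6 days was far below the other groups, none of which overlapped. The change was -2.88 log2 in DMSO and -0.78 in STM2457, a duration difference of 2.09 ± 0.21 (SE; edgeR adjusted p = 3.21e-15).

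PLXNA2 (chr1:208022242-208244384) encodes plexin-A2, a semaphorin receptor of axon guidance. Its levels in DMSO were 202 and 219 CPM at 3 days and 41.1 and 41.4 at 6 days, and in STM2457 225 and 214 CPM at 3 days and 122 and 119 at 6 days. The pattern was that of STRA6, with no difference between the arms at 3 days that passed the test and a steeper fall in DMSO (-2.35) than in STM2457 (-0.87). The duration difference was 1.48 ± 0.17 (edgeR adjusted p = 3.26e-12). CLSTN2 (chr3:139935185-140577397), a calsyntenin of synaptic membranes, held 352 and 347 CPM in DMSO at 3 days and 127 and 127 at 6 days. In STM2457 it held 424 and 446 CPM at 3 days and 380 and 362 at 6 days. Only the DMSO change passed the test (-1.46 against -0.23), so that an STM2457 effect of 0.32 log2 at 3 days became one of 1.55 at 6 days, a difference of 1.23 ± 0.11 (edgeR adjusted p = 1.70e-18).

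RECQL4 (chr8:144511288-144517845), a DNA helicase needed for the start of replication, crossed over between the arms. Its levels were 64.5 and 69.8 CPM in DMSO at 3 days, 27.6 and 33.5 in DMSO at 6 days, 44.3 and 44.8 in STM2457 at 3 days and 55.2 and 52.9 in STM2457 at 6 days. STM2457 libraries were below DMSO at 3 days (-0.59 log2, edgeR adjusted p = 0.0173) and above it at 6 days (0.83, edgeR adjusted p = 4.03e-05). DMSO fell by 1.14 log2, the STM2457 change of 0.28 did not pass the test, and the duration difference was 1.42 ± 0.22 (edgeR adjusted p = 1.06e-06). STRA6, PLXNA2, CLSTN2 and RECQL4 also passed as higher under ERCC scaling, at 1.44, 0.83, 0.58 and 0.76 log2, and passed in each of the 8 refits that left out 1 library.

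RET (chr10:43077064-43130351), the receptor of the GDNF family and a kinase of sympathetic neuroblasts, was chosen after its values were seen. It stood at 191 and 190 CPM in DMSO at 3 days, 35.95 and 51.0 in DMSO at 6 days, 253 and 267 in STM2457 at 3 days and 124 and 111 in STM2457 at 6 days. RET fell in both arms, with changes of -2.135 log2 in DMSO and -1.15 in STM2457. The duration difference was 0.99 ± 0.15 (edgeR adjusted p = 4.69e-07), against 0.33 under ERCC scaling, where it did not pass. TBX2, a transcription factor of the adrenergic state, and NEFH, the heavy neurofilament chain, also fell in both arms, with changes of -1.26 and -1.11 log2 in DMSO and -0.54 and -0.65 in STM2457. Their duration differences were 0.72 and 0.45, respectively (edgeR adjusted p = 0.00691 and 0.0002015). NEFH lost its call without the STM2457 3-day replicate 1, at 0.34, and TBX2 in 4 of the 8 refits, those without DMSO 3-day replicate 2, STM2457 3-day replicate 2, DMSO 6-day replicate 1 or STM2457 6-day replicate 1, while its value over the 8 was 0.60 to 0.78. Under ERCC scaling TBX2 stood at 0.06 and NEFH turned to -0.20, neither of them passing.

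**Figure D3:**
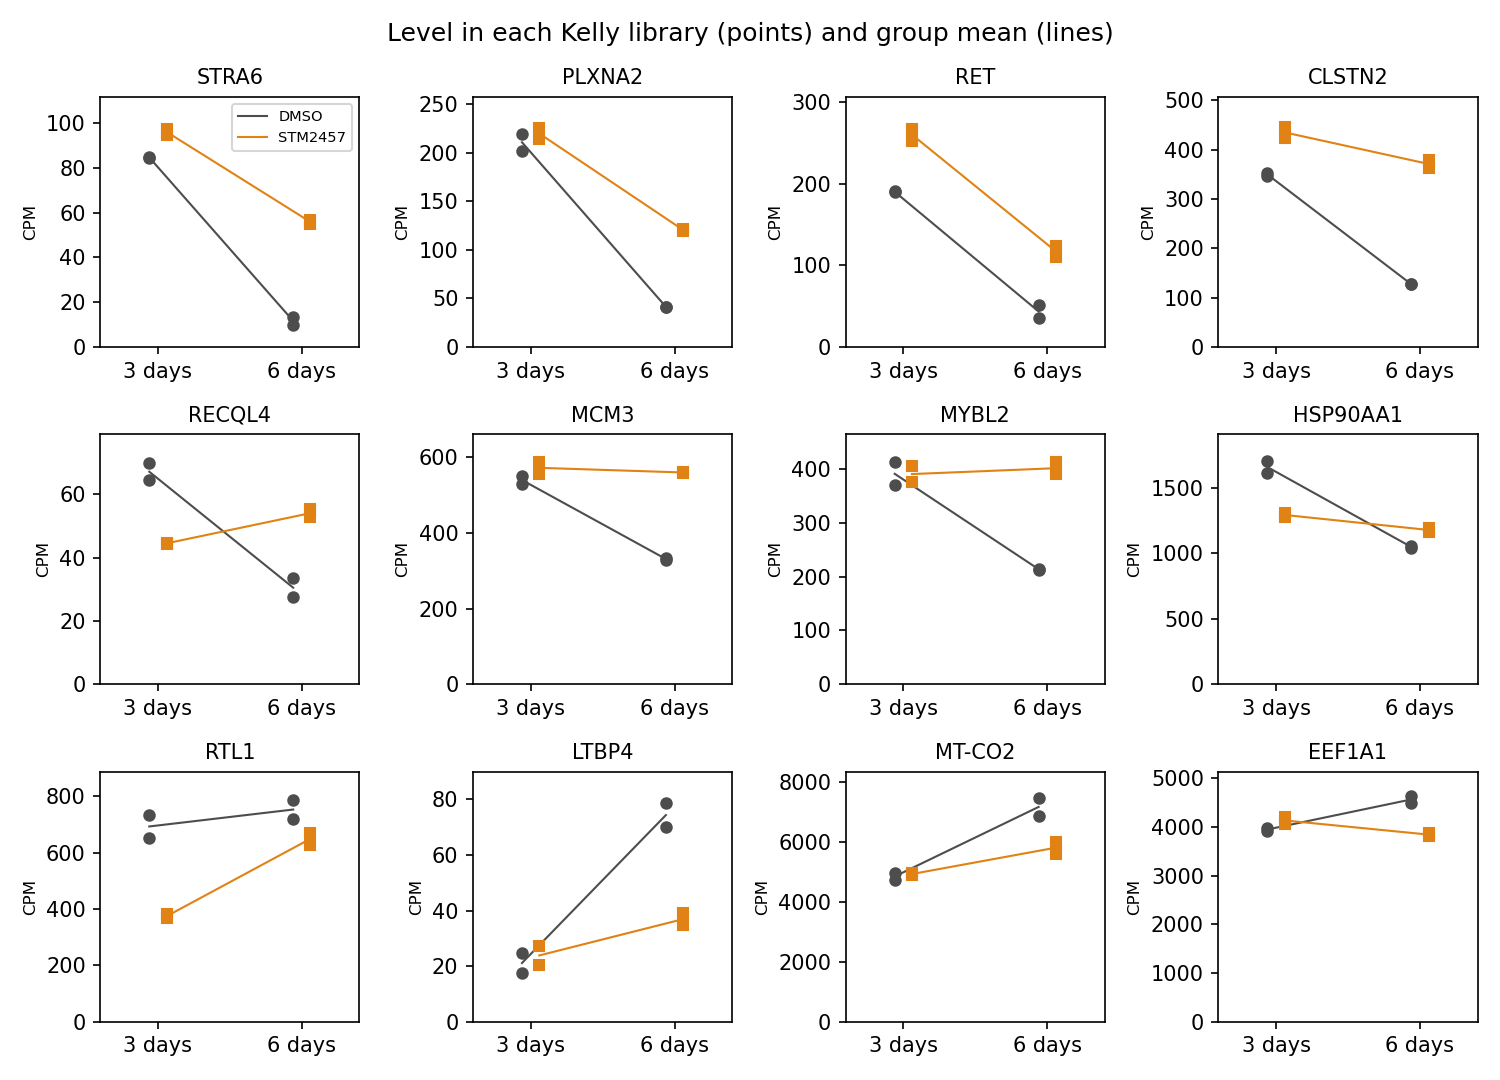
Level (CPM, TMM scaled, axes from 0) of 12 genes in each Kelly library without actinomycin D, by duration. Points are libraries, lines join group means, grey is DMSO and orange STM2457. DMSO falls more steeply in the first 8 panels, STM2457 rises in RTL1, and DMSO rises more in LTBP4 and MT-CO2. In EEF1A1 DMSO rises, while the STM2457 mean is lower at 6 days than at 3. Under ERCC scaling the sign of the duration difference turned for HSP90AA1 among these 12 genes.

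Of the 44 DNA replication genes tested, 14 had a higher STM2457 effect at 6 days and 0 a lower one, and 43 had a difference above 0. The list's median was 0.51 log2, against 0 for all genes, but -0.14 under ERCC scaling. In DMSO 33 of the 44 fell and all 44 were below 0 (median -0.60, and -0.22 under ERCC scaling). In STM2457 4 fell and the median was -0.14 (-0.41 under ERCC scaling). Besides the genes described next, CDC45, POLE, MCM4, TYMS, LIG1, CHAF1A and UHRF1 were called. These counts describe the list and do not test it. Over all genes tested, 0.68% had a higher effect at 6 days, 5.74% fell in DMSO and 1.19% fell in STM2457.

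MCM3 (chr6:52264014-52284881), a subunit of the replicative helicase, illustrates the list. Its levels were 529 and 550 CPM in DMSO at 3 days, 327 and 334 in DMSO at 6 days, 555 and 588 in STM2457 at 3 days and 561 and 557 in STM2457 at 6 days. Only the DMSO libraries of 6 days stood apart. DMSO fell by 0.70 log2, the STM2457 change was -0.03, and the duration difference was 0.67 ± 0.10 (edgeR adjusted p = 4.24e-07), against 0.02 under ERCC scaling. CDC6, which helps load that helicase onto origins, held 129.9 and 120.5 CPM in DMSO at 3 days, 49.9 and 59.5 in DMSO at 6 days, 106 and 109.9 in STM2457 at 3 days and 89.8 and 111 in STM2457 at 6 days. Again only DMSO at 6 days was low, with a difference of 1.09 ± 0.21 (edgeR adjusted p = 0.000143), and of 0.44 under ERCC scaling, where it did not pass.

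Some members fell in both arms. RRM2, the regulated subunit of ribonucleotide reductase, changed by -1.04 log2 in DMSO and -0.35 in STM2457, and MCM5, another helicase subunit, which was chosen after its values were seen, by -1.12 and -0.44. Their differences were 0.68 and 0.68 (edgeR adjusted p = 4.24e-07 and 0.000146). MCM2 had a difference of 0.53 (edgeR adjusted p = 0.000103), with a change of -0.73 in DMSO and -0.20 in STM2457. PCNA, the sliding clamp, also singled out after its values were seen, went from 219.6 and 191.5 CPM to 137 and 121 in DMSO, and held 174 and 201, then 174 and 189.7 CPM in STM2457. Its difference of 0.63 (edgeR adjusted p = 0.0141) was lost in 4 of the 8 refits, without DMSO 3-day replicate 1, STM2457 3-day replicate 1, DMSO 6-day replicate 2 or STM2457 6-day replicate 2, at values down to 0.49. Under ERCC scaling RRM2 and MCM5 stood at 0.03, and MCM2 and PCNA turned to -0.13 and -0.02, none of them passing.

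GINS2, a part of the replicative helicase, PKMYT1, a kinase that holds CDK1 inactive, and PCLAF, a PCNA-binding protein and like PKMYT1 not on the list, were among the largest differences, at 1.07, 1.13 and 1.67 log2 (edgeR adjusted p = 0.013, 0.0361 and 0.0219). All were under 60 CPM in each of the 8 libraries, and DMSO alone fell, with changes of -1.20, -1.03 and -1.79. Their calls held in 2, 3 and 2 of the 8 refits without 1 library, with differences of 0.93 to 1.15, 0.95 to 1.26 and 1.18 to 1.99. Under ERCC scaling they stood at 0.42, 0.48 and 1.025 and did not pass. Limma-voom did not call PKMYT1 or PCLAF, DESeq2 gave neither an adjusted p, and library-size scaling did not call PKMYT1. Of the exon bases of PKMYT1 31.9% overlap KREMEN2 and PAQR4, and 28.8% of those of PCLAF overlap AC087632.2; counting without strand cannot separate such genes.

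Mitotic genes had the same direction, with a smaller median. Of 36 tested, 7 had a higher and 0 a lower effect at 6 days, 33 were above 0, and the median difference was 0.41 (-0.24 under ERCC scaling). In DMSO 20 fell (median -0.44, and -0.06 under ERCC scaling), and in STM2457 0 fell and 0 rose (median -0.02, 0.01 by library size and -0.29 under ERCC scaling). The shares over all genes were 0.68% with a higher effect and 5.74% falling in DMSO. In STM2457 1.2% of all genes rose and 1.19% fell. BUB1B, KIF11 and FOXM1 were called besides the 4 described here. MYBL2, the B-Myb factor that activates mitotic promoters, held 369 and 412 CPM in DMSO at 3 days, 212.5 and 215 in DMSO at 6 days, 375 and 405 in STM2457 at 3 days and 412 and 389.9 in STM2457 at 6 days. DMSO at 6 days was low and the other 3 groups overlapped, giving a difference of 0.91 ± 0.11 (edgeR adjusted p = 1.18e-11) and of 0.26 under ERCC scaling, where it did not pass.

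CENPF, a kinetochore protein, was near 1517 and 1499 CPM in DMSO at 3 days, 1249 and 1243 in DMSO at 6 days, 1528 and 1508 in STM2457 at 3 days and 1609 and 1593 in STM2457 at 6 days. Its difference of 0.35 ± 0.07 (edgeR adjusted p = 0.000739) was small but held in all 8 refits, and under ERCC scaling it passed in the other direction, at -0.30. MKI67, the proliferation antigen Ki-67, and TOP2A, the topoisomerase of dividing cells, singled out after its values were seen, had differences of 0.37 and 0.38 (edgeR adjusted p = 0.00237 and 0.00999). Both fell in DMSO, by changes of -0.48 and -0.39 log2, and the STM2457 values of -0.12 and -0.0070 did not pass. Their calls held in 4 and 1 of the 8 refits, at 0.30 to 0.37 and 0.27 to 0.42, and under ERCC scaling both passed in the other direction, at -0.29 and -0.27.

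The promoters of these genes differ in the short elements they carry. The sequences given here, from RefSeq on GRCh38.p14, show the 250 bases before the start of 2 replication genes, with E2F matches (TTTCCCGC or TTTGGCGC, either strand) in capitals, and of 2 mitotic genes, with matches to the core of the cell cycle genes homology region (TTTGAA, either strand) in capitals; they are shown because 33 members of the first list and 20 of the second fell in DMSO. The windows are chr6:52284743-52284992 for MCM3, chr20:5126623-5126872 for PCNA, chr17:40417897-40418146 for TOP2A and chr10:128126424-128126673 for MKI67, all on the minus strand and written 5′ to 3′ along the gene.
MCM3: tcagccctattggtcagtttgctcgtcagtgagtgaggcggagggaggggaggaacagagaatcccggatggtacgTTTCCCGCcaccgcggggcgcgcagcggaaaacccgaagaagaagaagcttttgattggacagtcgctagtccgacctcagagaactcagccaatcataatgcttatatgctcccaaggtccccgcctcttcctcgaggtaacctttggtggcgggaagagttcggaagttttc
PCNA: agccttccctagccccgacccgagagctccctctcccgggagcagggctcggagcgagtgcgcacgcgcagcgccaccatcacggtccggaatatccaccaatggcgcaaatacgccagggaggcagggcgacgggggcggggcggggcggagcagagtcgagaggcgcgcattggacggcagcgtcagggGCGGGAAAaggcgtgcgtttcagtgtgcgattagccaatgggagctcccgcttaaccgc
TOP2A: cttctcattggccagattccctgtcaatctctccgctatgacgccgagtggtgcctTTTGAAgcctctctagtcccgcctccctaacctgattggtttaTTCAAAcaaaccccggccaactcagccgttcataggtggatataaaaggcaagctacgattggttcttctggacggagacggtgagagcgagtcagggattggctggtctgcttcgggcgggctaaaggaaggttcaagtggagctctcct
MKI67: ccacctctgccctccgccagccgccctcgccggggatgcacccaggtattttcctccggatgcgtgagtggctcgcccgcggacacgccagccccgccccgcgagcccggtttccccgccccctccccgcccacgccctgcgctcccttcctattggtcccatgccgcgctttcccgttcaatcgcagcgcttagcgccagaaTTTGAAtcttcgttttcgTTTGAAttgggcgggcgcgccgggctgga

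Over windows of 250 bases before to 50 bases after the start, which matched 13106 of the tested genes and 99 of the 132 called, an E2F match was found in 47.2% of 36 DNA replication promoters, 6.67% of 30 mitotic promoters and 3.3% of all. The TTTGAA element was found in 2.78% of the replication promoters, 63.3% of the mitotic promoters and 10.8% of all. Among called genes with a higher effect at 6 days, 11 of 87 promoters (12.6%) held an E2F match and 21 (24.1%) a TTTGAA match. Among those with a lower effect, 0 of 12 held an E2F match and 1 held a TTTGAA match. By their letters, an E2F match and a TTTGAA match cannot overlap. A match is a description of letters and not of a bound site.

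Among chaperone genes, HSP90AA1 and HSPA8 were highest in DMSO at 3 days. HSP90AA1, the inducible cytosolic HSP90, held 1611 and 1702 CPM in DMSO at 3 days, 1052 and 1043 in DMSO at 6 days, 1276 and 1307 in STM2457 at 3 days and 1195 and 1159 in STM2457 at 6 days. STM2457 libraries were therefore below DMSO at 3 days (-0.36 log2) and above it at 6 days (0.17), and both differences passed the test. The duration difference was 0.53 ± 0.07 (edgeR adjusted p = 3.67e-10). HSPA8, the constitutive HSC70, had the same signs, with an STM2457 effect of -0.24 at 3 days and 0.23 at 6 days, and fell in both arms (-0.91 in DMSO and -0.44 in STM2457). Its difference was 0.47 (edgeR adjusted p = 8.10e-07). HSPH1, a cochaperone of the HSP110 family, had a difference of 0.44 (edgeR adjusted p = 0.0388) that was lost in each of the 8 refits, at 0.37 to 0.44. Of 17 heat shock genes 3 were called higher, against 0.68% of all genes. The list's median of 0.26 turned to -0.40 under ERCC scaling, where HSP90AA1, HSPA8 and HSPH1 also turned, to -0.13, -0.18 and -0.22.

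Of 30 hypoxia and glycolysis genes, 4 were called higher and 0 lower, against 0.68% and 0.107% of all genes. All 4 are glycolytic enzymes. ENO1, enolase, held 1289 and 1285 CPM in DMSO at 3 days against 918 and 888 in DMSO at 6 days, 1007 and 1008 in STM2457 at 3 days and 917 and 934 in STM2457 at 6 days. DMSO at 3 days was the high group and the arms overlapped at 6 days, with an STM2457 effect of -0.35 log2 at 3 days and of 0.04, not passing, at 6 days. TPI1 and PKM, triosephosphate isomerase and pyruvate kinase, had the same order, with 3-day effects of -0.37 and -0.39 and 6-day effects of 0.11 and 0.04 that did not pass. ENO1, TPI1 and PKM changed by -0.51, -0.52 and -0.67 in DMSO and by -0.12, -0.05 and -0.25 in STM2457. The STM2457 change of ENO1 did not pass. The duration differences of ENO1, TPI1 and PKM were 0.39, 0.47 and 0.43 (edgeR adjusted p = 0.0001295, 1.38e-05 and 6.31e-05), and they held in all 8 refits. GAPDH, named to complete the 4, had 0.20 (edgeR adjusted p = 0.0402), which was lost in each of the 8 refits, at 0.14 to 0.21. With TMM scaling GAPDH fell in both arms, with changes of -0.37 log2 in DMSO and -0.17 in STM2457. Under ERCC scaling its changes were 0.0099 in DMSO and -0.44 in STM2457. The list's median was 0.21 and turned to -0.44 under ERCC scaling, where ENO1, TPI1, PKM and GAPDH turned to -0.26, -0.18, -0.22 and -0.45, all but TPI1 passing. These chaperone and enzyme genes have close relatives or processed copies in the genome, and the file headers name no setting for reads that map to several places.

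FASN, fatty acid synthase, and HMGCS1, an early enzyme of cholesterol synthesis, were the 2 called of 29 lipid genes, at 0.34 and 0.56 (edgeR adjusted p = 0.000683 and 0.0293). FASN fell in DMSO from 1621 and 1656 to 1380 and 1297 CPM, and held 1586 and 1493, then 1617 and 1559 CPM in STM2457. The HMGCS1 level went from 161 and 186 to 100 and 103 CPM in DMSO and from 202 and 218 to 176 and 186 in STM2457. Their calls held in 5 and 1 of the 8 refits, at 0.26 to 0.35 and 0.42 to 0.63, and under ERCC scaling they turned to -0.32, which passed, and -0.10. The list's median of 0.21 turned to -0.45 there. Of all genes tested, 0.788% were called. ITGB5, an integrin subunit and the 1 called of 38 collagen, laminin and integrin genes, fell from 184.5 and 173 to 93.5 and 88.5 CPM in DMSO and stood at 107 and 118, then 89.1 and 97.0 CPM in STM2457. An STM2457 effect of -0.67 at 3 days was 0.03 at 6 days, a difference of 0.70 (edgeR adjusted p = 0.00541) whose call held in 4 of the 8 refits, at 0.61 to 0.74, and 0.05 under ERCC scaling.

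ACE, the angiotensin-converting enzyme, fell in DMSO from 45.9 and 56.1 to 20.6 and 17.8 CPM and stood at 42.5 and 36.8, then 31.2 and 32.6 CPM in STM2457. Its difference was 1.09 (edgeR adjusted p = 0.0141), held in 3 of the 8 refits at 0.91 to 1.20, and was lost with limma-voom and under ERCC scaling, at 0.44 in the latter. Of its exon bases, 23.9% overlap AC113554.1. IGF2, an insulin-like growth factor made by many embryonal tumours, was chosen after its values were seen. It held 1118 and 1063 CPM in DMSO at 3 days, 817 and 809 in DMSO at 6 days, 564 and 480 in STM2457 at 3 days and 588 and 605 in STM2457 at 6 days. STM2457 was thus below DMSO at both durations, with effects of -1.06 log2 at 3 days and -0.45 at 6 days. DMSO fell, and the STM2457 change of 0.19 did not pass. The difference was 0.62 ± 0.08 (edgeR adjusted p = 7.54e-09), and -0.04 under ERCC scaling. Of its exon bases 70.7% are shared with INS-IGF2 and AC132217.2.

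METTL3 RNA, the target's own transcript, gave no difference that passed. Its levels were 46.5 and 53.1 CPM in DMSO at 3 days, 48.3 and 54.6 in DMSO at 6 days, 48.4 and 55.5 in STM2457 at 3 days and 52.98 and 66.2 in STM2457 at 6 days, and the 4 groups overlapped. The difference was 0.15 ± 0.24 (edgeR adjusted p = 0.9999), it ranged from -0.049 to 0.28 with 1 library left out, and it was -0.50 under ERCC scaling, not passing. Among 20 genes of the m6A machinery, whose median of 0.05 turned to -0.0013 by library size and to -0.61 under ERCC scaling, 1 was called (against 0.788% of all genes), HNRNPA2B1, a nuclear protein proposed as a reader of the mark. It fell in DMSO from 1949 and 1993 to 1534 and 1518 CPM and stood at 1740 and 1917, then 1740 and 1671 CPM in STM2457, a difference of 0.27 (edgeR adjusted p = 0.00809). That call held in 1 of the 8 refits, at 0.17 without STM2457 3-day replicate 1 and up to 0.31, and ERCC scaling turned it to -0.38, where it passed. MYCN, the amplified oncogene, fell in DMSO from 5533 and 6035 to 4593 and 4370 CPM, and its STM2457 levels were 5541 and 5271, then 5054 and 4834 CPM. Its difference of 0.24 ± 0.07 missed the threshold (edgeR adjusted p = 0.0559). It passed with the replicate number as a block (0.24, edgeR adjusted p = 0.0267), and under ERCC scaling it was -0.41 and passed.

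In 5 genes it was the STM2457 level that moved, and they are named although all but 2 were chosen after their values were seen. RTL1, an imprinted gene derived from a retrotransposon, stood at 651 and 733 CPM in DMSO at 3 days, 785 and 719 in DMSO at 6 days, 367 and 381 in STM2457 at 3 days and 670 and 628 in STM2457 at 6 days. STM2457 at 3 days was the low group, the drug effect was -0.89 log2 at 3 days and -0.21 at 6 days, and the STM2457 level rose by 0.79. The difference was 0.67 ± 0.09 (edgeR adjusted p = 3.37e-08); the locus also makes an antisense transcript, and strand was not counted. ASS1, the enzyme that makes argininosuccinate for arginine synthesis, stood at 158 and 144 CPM in DMSO at 3 days, 186 and 161 in DMSO at 6 days, 82.0 and 65.5 in STM2457 at 3 days and 130 and 143 in STM2457 at 6 days. The same shape held, with an effect of -1.04 at 3 days and -0.34 at 6 days and a difference of 0.69 ± 0.15 (edgeR adjusted p = 0.00231). The ASS1 call held in 4 of the 8 refits, at 0.51 to 0.83. Under ERCC scaling RTL1 and ASS1 stood at 0.02 and 0.04 and did not pass, and both arms were above 0.

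KIF1A, an axonal motor, rose in STM2457 from 638 and 689 to 817 and 776 CPM, and DMSO held 851 and 887, then 828 and 795 CPM. Its difference of 0.36 (edgeR adjusted p = 0.00576) held in 4 of the 8 refits, at 0.28 to 0.39, and was -0.29 under ERCC scaling, where it passed and where the change lay in DMSO (0.28) and not in STM2457 (-0.0077). ANK2, an ankyrin of axonal membranes, went the other way: STM2457 fell from 251 and 267 to 164 and 183 CPM, while DMSO held 191 and 191, then 199 and 169 CPM. Its difference was -0.53 (edgeR adjusted p = 0.0238) and held in 3 of the 8 refits, at -0.67 to -0.43. WDR74, a ribosome assembly factor, rests on 1 library: STM2457 at 3 days gave 428 and 627 CPM, and the other 6 libraries 357 to 439 CPM. Its difference of -0.50 (edgeR adjusted p = 0.0255) became -0.23 without STM2457 3-day replicate 2 and was lost, and -0.77 without replicate 1 of that group. In the libraries with 3 h and 6 h of actinomycin D the WDR74 difference was -0.81 and -0.82 and passed (edgeR adjusted p = 7.52e-07 and 5.36e-07). That of ANK2 was -0.08 and 0.12 in those libraries and did not pass (edgeR adjusted p = 0.937 and 0.77). Neither gene was called by limma-voom, nor WDR74 by DESeq2.

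KIF21A, a kinesin that restrains microtubule growth, was the 1 gene that moved in opposite directions. DMSO fell from 495 and 494 to 356 and 351 CPM, and STM2457 rose from 610 and 599 to 725 and 715 CPM. The STM2457 effect thus grew from 0.29 to 1.03 log2, a difference of 0.74 ± 0.10 (edgeR adjusted p = 7.54e-09) that held in all 8 refits. The STM2457 rise passed in 4 of these 8; under ERCC scaling the difference was 0.08 and did not pass, with both arms slightly below 0. For FSD1, MYH9 and SLC25A23 neither arm's change passed alone, and the differences were 0.79, 0.34 and -0.76 (edgeR adjusted p = 0.0141, 0.0382 and 0.0472). Their calls held in 2, 0 and 2 of the 8 refits; FSD1 dropped to 0.53 without DMSO 3-day replicate 2, MYH9 ranged from 0.27 to 0.36 and turned to -0.31 under ERCC scaling, and SLC25A23 ranged from -0.998 to -0.60.

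Of 13 mitochondrially encoded transcripts tested, 5 had a lower STM2457 effect at 6 days and 0 a higher one, and all 13 differences were below 0 (median -0.22, and -0.88 under ERCC scaling). In DMSO 8 rose and 1 fell, with a median of 0.29. In STM2457 1 rose and 1 fell, with a median of 0.02 that was -0.25 under ERCC scaling. Over all genes, 0.107% had a lower effect at 6 days. Of all genes, 2.78% rose and 5.74% fell in DMSO, and 1.2% rose and 1.19% fell in STM2457. MT-CO2, a subunit of cytochrome c oxidase, held 4971 and 4718 CPM in DMSO at 3 days, 6875 and 7446 in DMSO at 6 days, 4878 and 4974 in STM2457 at 3 days and 5607 and 6000 in STM2457 at 6 days. It rose in both arms, by 0.56 log2 in DMSO and 0.24 in STM2457, and the difference was -0.33 ± 0.05 (edgeR adjusted p = 2.25e-06).

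MT-ND4, a subunit of complex I, went from 7292 and 6497 to 8686 and 9801 CPM in DMSO and stood at 7428 and 6810, then 7449 and 7461 CPM in STM2457. DMSO alone rose, and the difference was -0.36 ± 0.06 (edgeR adjusted p = 6.00e-06). MT-CO3, MT-ATP6 and MT-CO1, the others called, had differences of -0.30, -0.30 and -0.21 (edgeR adjusted p = 0.000699, 0.00905 and 0.003895); MT-CO1 and MT-ATP6 were named to complete the 5. All 5 calls held in the 8 refits, though MT-CO1 was -0.32 without DMSO 3-day replicate 1, and neither DESeq2 nor limma-voom called MT-ND4, MT-ATP6 or MT-CO1. Nuclear copies of mitochondrial sequence exist. The share of mitochondrial fragments was 5.86% and 5.32% in DMSO at 3 days, 6.7% and 7.38% in DMSO at 6 days, 6.02% and 5.48% in STM2457 at 3 days and 5.98% and 6.04% in STM2457 at 6 days; its part in the result was not tested.

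EEF1A1, the elongation factor that brings aminoacyl-tRNA to the ribosome, held 3977 and 3917 CPM in DMSO at 3 days, 4629 and 4499 in DMSO at 6 days, 4205 and 4061 in STM2457 at 3 days and 3873 and 3812 in STM2457 at 6 days. DMSO at 6 days was the high group, and the difference was -0.31 ± 0.05 (edgeR adjusted p = 3.28e-07). DMSO rose by 0.21 log2, and the STM2457 change of -0.11 did not pass the test (edgeR adjusted p = 0.0645). Among 78 cytosolic ribosomal protein genes 1 was called lower, RPL4, and 1 higher, RPS29. Their median difference was -0.09 (-0.75 under ERCC scaling), and 35 rose and 3 fell in DMSO while 9 rose and 0 fell in STM2457. Over all genes 0.68% were called higher and 0.107% lower. The shares rising over all genes were 2.78% in DMSO and 1.2% in STM2457, and the shares falling were 5.74% and 1.19%. RPL4 went from 1383 and 1392 to 1889 and 1786 CPM in DMSO and from 1277 and 1389 to 1490 and 1462 in STM2457, a difference of -0.26 (edgeR adjusted p = 0.0245) that held in 5 of the 8 refits, at -0.34 to -0.23.

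RPS29, a small-subunit protein gene, had the largest positive difference, 2.76, and rests on 1 library. DMSO 3-day replicate 1 gave 1130 CPM and replicate 2 of the same group 81.3, while the other 6 libraries gave 79.2 to 175 CPM. Without that library the difference was -0.17 and was lost, and neither DESeq2 nor limma-voom called it. Among the 16 Kelly libraries with actinomycin D, single libraries also stood high, at 1099 CPM for STM2457 6-day 3 h replicate 1 against 116 in its partner, 578 CPM for STM2457 6-day 6 h replicate 1 against 100.9, and 320.5 CPM for DMSO 3-day 3 h replicate 2 against 109. RPS29 has many processed copies.

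LTBP4, a matrix protein that binds latent TGF-β, stood at 17.6 and 24.8 CPM in DMSO at 3 days, 69.95 and 78.8 in DMSO at 6 days, 20.4 and 27.4 in STM2457 at 3 days and 34.7 and 39.2 in STM2457 at 6 days. It rose in both arms, by 1.81 log2 in DMSO and 0.63 in STM2457, with a difference of -1.185 ± 0.26 (edgeR adjusted p = 0.003005). The call was lost without DMSO 3-day replicate 1 (-0.99) or STM2457 3-day replicate 2 (-0.99). FAM163B rose from 46.7 and 38.3 to 146 and 134 CPM in DMSO and from 57.6 and 49.96 to 82.9 and 104 in STM2457. Its difference of -0.92 (edgeR adjusted p = 0.00741) held in 4 of the 8 refits, at -1.13 to -0.80.

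MAOA, the monoamine oxidase that degrades catecholamine and serotonin transmitters, held 288 and 264 CPM in DMSO at 3 days, 413 and 407 in DMSO at 6 days, 470 and 481 in STM2457 at 3 days and 526 and 519 in STM2457 at 6 days. STM2457 stood above DMSO at both durations, by 0.78 and 0.35 log2, and DMSO alone rose, by 0.57. The difference was -0.43 ± 0.10 (edgeR adjusted p = 0.00776) and was lost without DMSO 3-day replicate 2, at -0.40. RNF213 is a large ubiquitin ligase, and COX7A2L helps to assemble respiratory supercomplexes. Of the exon bases of AC015802.6, 21.2% overlap ST6GALNAC2. The STM2457 change of AC015802.6, -0.27, was close in size to its DMSO change and did not pass (edgeR adjusted p = 0.0688). For RNF213, COX7A2L and AC015802.6 only the DMSO rise passed, at 1.07, 0.55 and 0.27. Their differences were -0.68, -0.77 and -0.54 (edgeR adjusted p = 0.0274, 0.03697 and 0.00435), and their calls held in 4, 3 and 6 of the 8 refits, at -0.87 to -0.56, -0.97 to -0.62 and -0.65 to -0.49. For AC015802.6 the DMSO rise was lost in 3 of the 8 refits and the STM2457 change passed in 5. KCP was the 1 called gene with a mean under 5 CPM: its DMSO levels were 0 and 0.138, then 2.04 and 1.65 CPM, and its STM2457 levels 2.45 and 0.668, then 0.458 and 0 CPM, so its fitted difference of -7.36 depends on the prior count and is no measure of size.

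**Figure D4:**
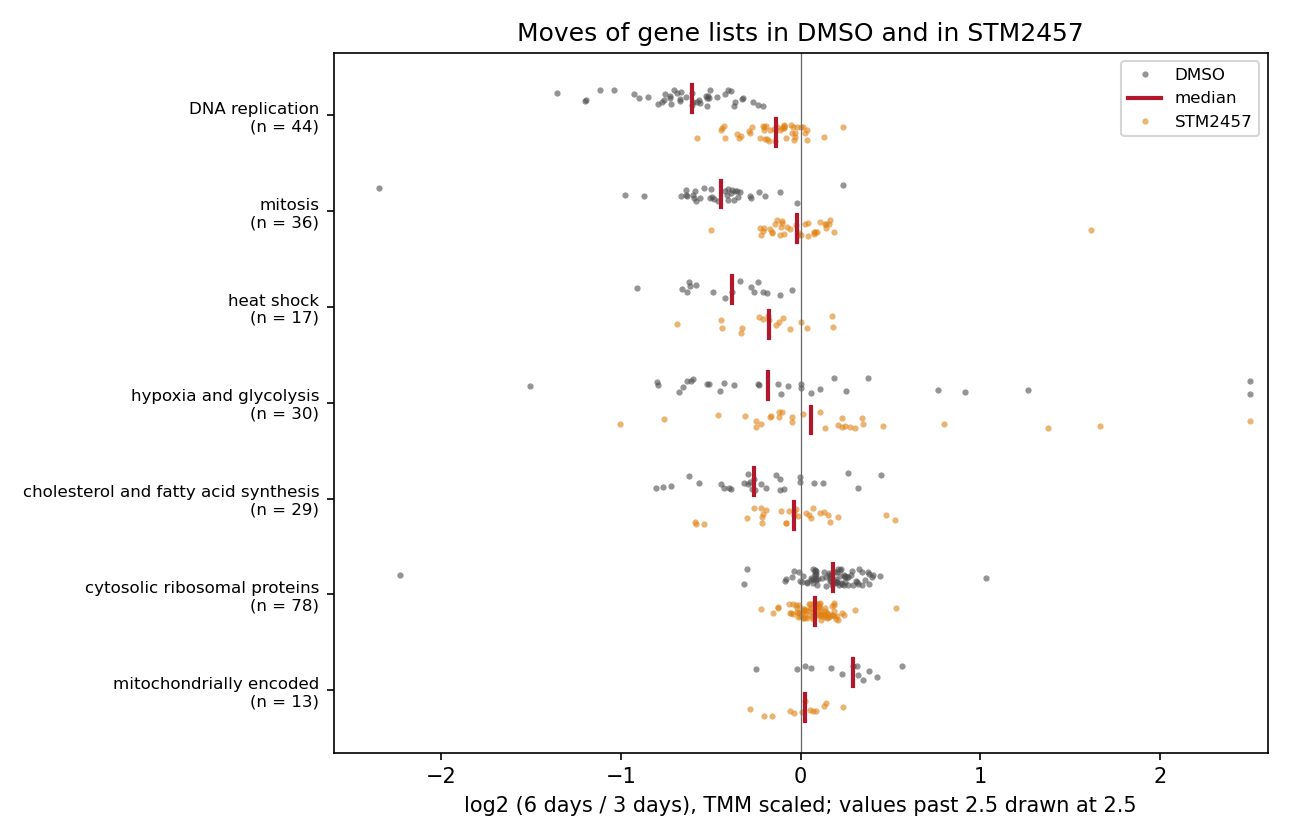
Change from 3 to 6 days (log2, TMM scaled) of each member of 7 gene lists in DMSO (grey) and STM2457 (orange), with medians as red bars. The DMSO medians of DNA replication and mitosis lie at -0.60 and -0.44 and the STM2457 medians at -0.14 and -0.02, while the DMSO median of mitochondrially encoded genes lies at 0.29; under ERCC scaling the median duration differences of the upper 5 lists turn below 0, and by library size the STM2457 median of mitosis turns to 0.01.

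Lists without a call were those of p53 targets (20 tested), the amino acid response (34), endoplasmic reticulum stress (17), immediate early genes (22) and interferon response (20). Their median differences were -0.07, -0.0058, 0.19, -0.04 and -0.08, and that of endoplasmic reticulum stress turned to -0.46 under ERCC scaling. The neuronal list had 1 call in 30 genes, NEFH, with a median of 0.04 that library-size scaling and ERCC scaling turned below 0 (-0.01 and -0.61). The axon guidance list had 1 call in 60, PLXNA2, with a median of -0.0047, and the adrenergic transcription factors 1 in 14, TBX2, with a median of 0.15 that ERCC scaling turned to -0.51. The share called over all genes was 0.788%.

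The same duration difference was computed in libraries that the calls did not use. It was computed with TMM scaling only, and not with ERCC scaling, for the actinomycin D libraries and for NGP. Kelly cells exposed to actinomycin D, which stops transcription, form 2 further sets of 8 libraries, at 3 h and 6 h, though the dispersion of the fit is shared with them. At 3 h, where 2% of all genes passed as higher and 0.621% as lower, 113 of the 114 higher genes were above 0 and 83 passed, and 17 of the 18 lower genes were below 0 and 13 passed. At 6 h, with 2.62% and 1.31% of all genes, 109 and 14 had the same sign and 79 and 11 passed. In all, 76 genes passed in the same direction at 0, 3 and 6 h. The 1 gene that passed in the opposite direction was IGF2, at 0.64 at 3 h and -0.31 at 6 h.

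CLSTN2 had differences of 1.49 at 3 h and 1.46 at 6 h, STRA6 of 1.78 and 1.58, RET of 1.48 and 0.98, and HSP90AA1 of 0.75 and 0.80, all passing (largest edgeR adjusted p = 1.43e-07). PLXNA2 had 1.41 at 3 h and 0.76 at 6 h, both passing (edgeR adjusted p = 1.42e-11 and 0.00107). RECQL4 had 0.45 and 0.53, PKMYT1 0.56 and 0.50, GINS2 0.40 and 0.66, and PCLAF 0.20 and 1.06, none of which passed. These sets also contain any duration difference in decay, and the labels do not say whether they came from the same plates.

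In NGP, another MYCN-amplified neuroblastoma line, 1.75% of all genes passed as higher and 1.04% as lower. Of the 113 higher Kelly genes tested there, 98 were above 0 and 47 passed, with a median of 0.30 against 0.02 for all NGP genes. Of the 18 lower genes, 13 were below 0, 3 passed and the median was -0.10. Chaperones were large in NGP, with HSP90AA1 at 1.02 and HSPA8 at 0.97 (edgeR adjusted p = 3.50e-32 and 7.02e-19), and HMGCS1 stood at 1.14 (edgeR adjusted p = 3.59e-11). MCM3 and MYBL2 passed at 0.47 and 0.58 (edgeR adjusted p = 0.00014 and 1.86e-05), as did RRM2, CENPF, MKI67 and TOP2A at 0.38, 0.42, 0.54 and 0.65. CDC6, RECQL4, MCM2, MCM5, PCNA and GINS2 did not pass, at 0.06, 0.0075, 0.24, 0.33, 0.21 and 0.37, nor did PKMYT1 and PCLAF, at 0.18 and 0.55. Others that did not pass were these: STRA6 stood at -0.31, PLXNA2 at -0.42, RET at -0.19 and CLSTN2 at 0.55 (edgeR adjusted p = 0.787, 0.792, 0.906 and 0.301). ASS1 was the 1 gene that passed in the opposite direction, at -0.56 (edgeR adjusted p = 6.00e-06). The difference between the lines was not tested.

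**Figure D5:**
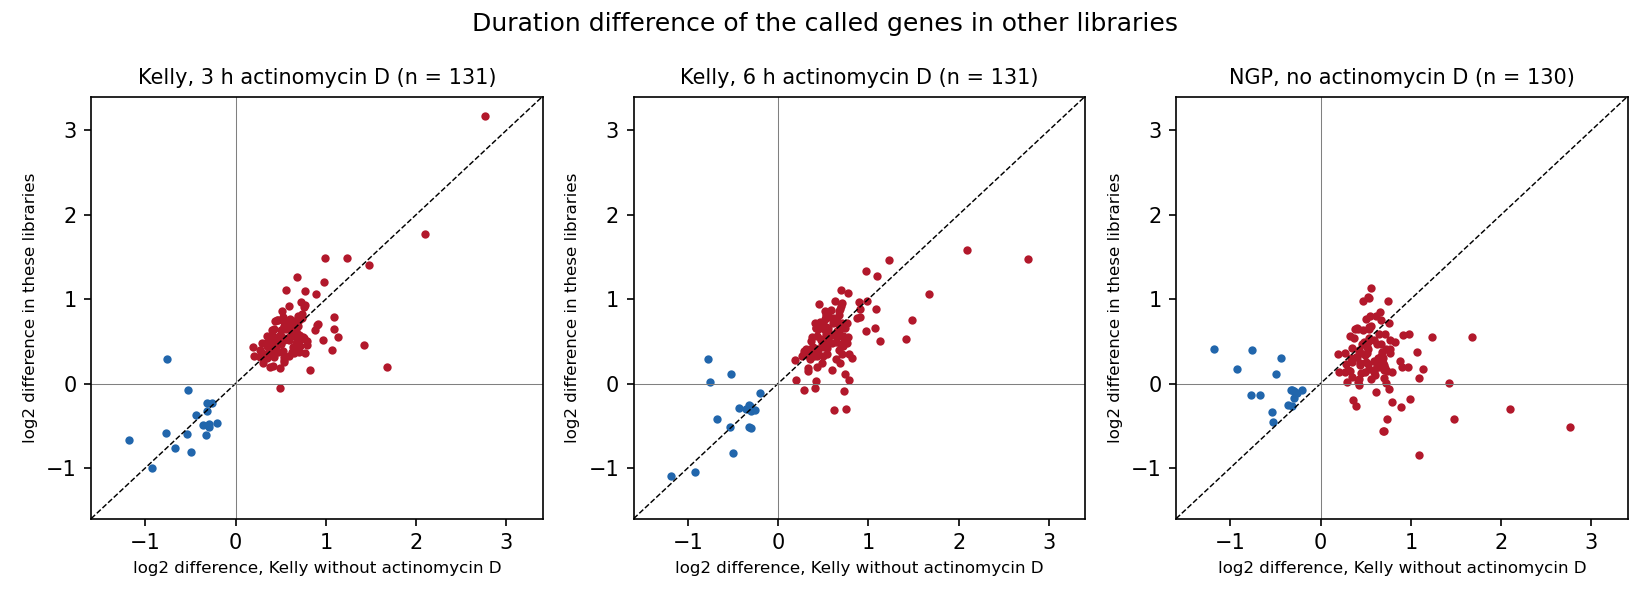
Duration difference (log2, TMM scaled) of the called genes in Kelly without actinomycin D (horizontal) against Kelly after 3 h and 6 h of actinomycin D and NGP without it (vertical), with red for higher and blue for lower genes and a dashed line of equal values; KCP is not drawn. In the 3 h and 6 h panels 113 and 109 of the 114 higher genes lie above 0, and in NGP 98 of 113 do.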

How the data were processed

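Poly(A)-selected RNA was sequenced from cell line cultures. Per the file headers, the deposited counts are fragments per gene from featureCounts, over exons of GENCODE 33 protein-coding genes and 92 ERCC spike-in sequences, with no strand, multi-mapping or overlap option named. The submitters' processing notes name HISAT2 2.1.0, Subread 1.5.3, Trimmomatic 0.36 and FastQC 0.11.5. Coordinates are on GRCh38.

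The members and gene lists were chosen with earlier results of these data known. Libraries were grouped by label. Genes were kept by edgeR's filterByExpr (minimum count 10, minimum total 15), scaled by TMM without the spike-ins, and fitted with edgeR 4.0.16 (quasi-likelihood, R 4.3.3) over 24 Kelly libraries in 12 groups, which share 1 estimate of the spread. P-values were adjusted by Benjamini-Hochberg over all genes, with a threshold of 0.05. The SE was worked back from the test, as the absolute log2 value divided by the square root of its F statistic. An arm is said to have moved where its own contrast passed. NGP was fitted separately. CPM values are TMM scaled.

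Named are METTL3, MYCN, the 10 largest differences per direction among called genes at a mean of 5 CPM or more, the 5 of smallest adjusted p per direction, and up to 3 called members per list. Other genes were chosen after their values were seen. Alternatives were size factors (RLE), library size, ERCC scaling, no filter, DESeq2 1.42.0, limma-voom (limma 3.58.1), the 8 libraries alone, the replicate number as a block, and each of 8 libraries left out.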

Additional observations from a re-analysis of the deposited data

Results flagged for a closer look

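The 2 durations differed in their STM2457 effect for 114 genes in the higher and 18 genes in the lower direction, by the test of the difference itself. Each gene named here is listed because that test passed at an adjusted p under 0.05 (edgeR's quasi-likelihood test). All values are log2 duration differences.

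The differences were 2.09 for STRA6, 1.48 for PLXNA2, 1.23 for CLSTN2, 1.09 for ACE, 0.99 for RET (0.985 before rounding), 0.70 for ITGB5 and 0.62 for IGF2. In other genes outside the groups named next they were 0.79 for FSD1, 0.74 for KIF21A, 0.72 for TBX2, 0.67 for RTL1, 0.45 for NEFH, 0.36 for KIF1A, 0.34 for MYH9 and 0.27 for HNRNPA2B1.

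For replication and mitosis they were 1.67 for PCLAF, 1.42 for RECQL4, 1.13 for PKMYT1, 1.09 for CDC6, 1.07 for GINS2, 0.91 for MYBL2, 0.68 for RRM2, 0.68 for MCM5, 0.67 for MCM3, 0.63 for PCNA, 0.53 for MCM2, 0.38 for TOP2A, 0.37 for MKI67 and 0.35 for CENPF. For chaperones and metabolism they were 0.53 for HSP90AA1, 0.47 for HSPA8, 0.44 for HSPH1, 0.47 for TPI1, 0.43 for PKM, 0.39 for ENO1, 0.20 for GAPDH, 0.69 for ASS1, 0.56 for HMGCS1 and 0.34 for FASN.

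For proteasome subunits they were 0.97 for PSMC2, 0.72 for PSMC4, 0.69 for PSMC1, 0.60 for PSMA7, 0.59 for PSMC3 and 0.51 for PSMD2. RPS29 had 2.76, a value that was -0.17 without DMSO 3-day replicate 1.

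In the lower direction they were -1.185 for LTBP4, -0.92 for FAM163B, -0.77 for COX7A2L, -0.76 for SLC25A23, -0.68 for RNF213, -0.54 for AC015802.6, -0.53 for ANK2, -0.43 for MAOA, -0.36 for MT-ND4, -0.33 for MT-CO2, -0.31 for EEF1A1, -0.30 for MT-CO3, -0.30 for MT-ATP6, -0.26 for RPL4 and -0.21 for MT-CO1. WDR74 had -0.50, a value that was -0.23 without STM2457 3-day replicate 2. KCP had -7.36, a fitted value for a gene with under 3 CPM in every library, which is no measure of size.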

How the results depend on the processing

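With TMM the calls were 114 higher and 18 lower. They were 71 and 28 by library size, 7 and 4002 with ERCC, 259 and 50 with DESeq2, and 48 to 72 and 13 to 22 with 1 library left out. The lower calls were 9 with limma-voom and 43 in the 8 libraries alone. The higher share of calls, 86.4%, was 71.7% by library size, 76.4% in the 8 alone, 72.2% to 78.9% with 1 library left out, and 0.175% with ERCC. Of the 132 genes, 128 were shared with RLE, 122 with DESeq2, 81 with limma-voom and 60 to 79 with 1 library left out.

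In DMSO 466 genes rose and 962 fell, against 2650 and 170 with ERCC, 259 to 486 and 554 to 866 with 1 library left out, and 886 rose in the 8 alone. In STM2457 201 rose and 200 fell, against 76 and 2327 with ERCC, 313 and 364 with DESeq2, 399 and 359 in the 8 alone, and 89 to 196 and 115 to 243 with 1 library left out, and 115 rose with limma-voom.

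The classes were DMSO moved only, 99 (ERCC 1442, DESeq2 221, 39 to 65 with 1 library left out), STM2457 only, 5 (1275, 16, 3 to 6, limma-voom 2), both the same way, 24 (52, 58, 13 to 18), and neither, 3 (747, 12, 0 to 2, limma-voom 0). Both moved in opposite ways for 1 gene, against 2 with RLE, by library size and with DESeq2, 493 with ERCC, 3 without the filter, 6 in the 8 alone and 0 to 4 with 1 library left out.

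Among named genes, ERCC scaling turned the difference to -0.50 for METTL3, -0.30 for CENPF, -0.26 for ENO1, -0.32 for FASN, -0.45 for GAPDH, -0.10 for HMGCS1, -0.38 for HNRNPA2B1, -0.13 for HSP90AA1, -0.18 for HSPA8, -0.22 for HSPH1, -0.038 for IGF2, -0.29 for KIF1A, -0.13 for MCM2, -0.29 for MKI67, -0.41 for MYCN, -0.31 for MYH9, -0.20 for NEFH, -0.023 for PCNA, -0.22 for PKM, -0.047 for PSMA7, -0.064 for PSMC3, -0.15 for PSMD2, -0.27 for TOP2A and -0.18 for TPI1. RPS29 turned to -0.17 without DMSO 3-day replicate 1 and was 3.63 without replicate 2 of that group. Named genes that lost their call with limma-voom were AC015802.6, ANK2, ASS1, COX7A2L, FSD1, GAPDH, HMGCS1, HSPH1, KCP, LTBP4, MYH9, RNF213 and SLC25A23. So did PSMC1, PSMC2, PSMC3, PSMC4, WDR74, ACE, PKMYT1, PCLAF, RPS29, MT-ND4, MT-ATP6 and MT-CO1. By library size GAPDH, HMGCS1, HNRNPA2B1, HSPH1, MYH9, PKMYT1, PSMC1, PSMC2 and TOP2A lost theirs. With DESeq2 GAPDH, MT-ATP6, MT-CO1, MT-ND4, RPS29 and WDR74 lost theirs, and PCLAF, PKMYT1 and KCP had no adjusted p. MYCN passed at 0.24 without the filter, 0.22 with limma-voom, 0.21 in the 8 alone and 0.24 with the replicate block. The cause of these shifts was not tested. With the median of all genes subtracted under ERCC scaling, all 132 called genes kept their TMM direction. That subtraction returns to a centre like that of TMM, so its outcome cannot tell which scaling is right.

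Replicate numbers did not pair the libraries (correlations of deviations -0.011 to 0.012, over 6 pairs of groups). With the replicate block 144 genes were called, all 132 among them, 3 of them moving in opposite ways. With 2 libraries per group and spread shared with 16 libraries after actinomycin D, small differences and genes of few fragments are poorly resolved.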

Other observations

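Proteasome genes, a list put together after the values were seen, had the direction of the replication genes. The proteasome degrades ubiquitin-tagged proteins, with a catalytic core and a regulatory cap whose ATPase ring unfolds the substrate. Of 33 subunit genes, 6 had a higher STM2457 effect at 6 days and 0 a lower one, and 32 differences were above 0. The median difference was 0.41 (-0.24 under ERCC scaling), with a median change of -0.63 in DMSO, where 26 fell, and of -0.19 in STM2457, where 3 fell. Over all genes, 0.68% had a higher effect, 5.74% fell in DMSO and 1.19% fell in STM2457.

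PSMA7, a subunit of the core, held 376 and 401 CPM in DMSO at 3 days, 239 and 236 in DMSO at 6 days, 289 and 319 in STM2457 at 3 days and 290.4 and 275 in STM2457 at 6 days. DMSO at 3 days was the high group and DMSO at 6 days the low one, while the STM2457 groups lay between them and overlapped. DMSO fell by 0.71 log2, and the difference was 0.60 ± 0.11 (edgeR adjusted p = 6.56e-05), which held in all 8 refits without 1 library. PSMD2, a scaffold of the cap, fell in both arms, with changes of -0.78 in DMSO and -0.27 in STM2457, with a difference of 0.51 (edgeR adjusted p = 0.000489) that was lost without DMSO 6-day replicate 2, at 0.41.

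The ATPase genes PSMC1, PSMC2, PSMC3 and PSMC4 had differences of 0.69, 0.97, 0.59 and 0.72 (edgeR adjusted p = 0.0313, 0.0416, 0.00712 and 0.003005). Their calls held in 0, 2, 4 and 6 of the 8 refits, and PSMC3 stood at 0.38 without STM2457 6-day replicate 1. Of the exon bases of PSMC1 76.1% overlap NRDE2. Under ERCC scaling PSMA7, PSMD2 and PSMC3 turned to -0.05, -0.15 and -0.06, PSMC1, PSMC2 and PSMC4 stood at 0.04, 0.31 and 0.07, and none passed. After 3 h and 6 h of actinomycin D the differences were 0.76 and 0.71 for PSMA7 and 0.64 and 0.65 for PSMD2, all passing (largest edgeR adjusted p = 5.31e-07).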
